A study of Medicago truncatula with 24 samples.

Results

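Shoots of the cra2 mutant of Medicago truncatula, a model legume, were set against shoots of the wild type A17, both from plants whose local roots were kept under nitrogen deficit. The comparison rests on 6 of the 24 small RNA libraries of the series, 3 cra2 and 3 A17 libraries, chosen by their labels, and covers all 427 listed sequences. In both genotypes the root system was split at 3 weeks of age. The local part received 0.05 mM KNO3 as a low nitrogen supply for 4 days, the other part received no mineral nitrogen, and shoots were harvested at 4 weeks. Before the split-root treatment all plants grew in hydroponics with 0.5 mM KNO3 under 16 h of light. As a second setting, 3 cra2 and 3 A17 shoot libraries came from plants given 10 mM NH4NO3 locally (satiety), and cra2 and A17 root libraries of the deficit treatment, taken from the distant root part per the series design, are quoted where the organs are compared. The labels do not name the cra2 allele and do not tell whether replicates come from separate plants, so the p-values reflect the variation among these libraries and it may be technical.

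CRA2 is a receptor kinase that perceives CEP peptides, which roots release when nitrogen is scarce. It adjusts root growth and, acting in the shoot, nodulation. A plant microRNA (miRNA) is cut from a hairpin precursor as a pair of strands. The mature strand guides an Argonaute protein to matching transcripts, and the strand from the opposite arm of the hairpin is usually degraded. In legumes, miR2111 is made in the shoot, moves to the root and lowers transcripts of TML, an F-box protein that restrains nodulation, and CEP signalling through CRA2 is known to maintain it.

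The sequences on which the comparison turns are printed first, with bases 2 to 8, the seed, in capitals. They are written as DNA, 5′ to 3′, as the files list them. The first set holds the 7 tested members of miR2111, the mature strand and 6 strands of the opposite arm, shown because every one of them had lower values in cra2. Opposite arms a and c share the seed GCCTTGG, and the other members have a seed each.
miR2111 mature: tAATCTGCatcctgaggttta
miR2111 opposite arm a: aGCCTTGGaatgcagattatc
miR2111 opposite arm b: aTCCTTGGaatgcagattatc
miR2111 opposite arm c: aGCCTTGGgatgctgattatc
miR2111 opposite arm d: aTCCTTAGaatgcagattatc
miR2111 opposite arm e: aGCCTCGGagtgcggattatc
miR2111 opposite arm f: gTCCTCGGgatacagattact

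The second set holds members of other families. It shows miR408, a pair of miR396 members and a pair of miR156 members that share a seed but not their values, and members of miR160, miR171 and miR168 that are described in the text. With positions counted from 1 at the 5′ end, miR396 b differs from miR396 a by T21G, miR156 b differs from miR156 a by A17G, and miR160 b differs from miR160 a by T15A.
miR408: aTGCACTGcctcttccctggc
miR396 a: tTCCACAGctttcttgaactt
miR396 b: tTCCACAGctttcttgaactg
miR396 opposite arm: aTTCAAGAaggtcgtggaaaa
miR156 a: tTGACAGAagatagagagcac
miR156 b: tTGACAGAagatagagggcac
miR160 a: tGCCTGGCtccctgtatgcca
miR160 b: tGCCTGGCtccctgaatgcca
miR171: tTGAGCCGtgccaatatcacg
miR168 opposite arm: cCCGCCTTgcatcaactgaat

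The third set holds the 13 sequences of no named family that passed the test, called here sRNA-A to sRNA-M, with 10 higher (sRNA-A to sRNA-J) and 3 lower in cra2.
sRNA-A: gCTAAACGgaatgagggtagtcat
sRNA-B: cAGAGTGCagatacacgcatc
sRNA-C: aCAAGTAGaaccttttttctg
sRNA-D: tGATAGTGtcaactagtacag
sRNA-E: tCAAGTGAcaaggaagatctt
sRNA-F: cTTTTCACtttcgaacgggtg
sRNA-G: tAATGGATtatgtaagattaa
sRNA-H: tTCGGGTTgataatattttctt
sRNA-I: cGTGACAAcacatcattggatgca
sRNA-J: cATTTGGAgagacatagacaa
sRNA-K: tAGGTTTGagaaaatgggcag
sRNA-L: tCAAGTTCtcataattcaaaa
sRNA-M: tTTATTCTcagtttgttgctc

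Of the 427 sequences 314 had counts in the 6 libraries and 113 had none, and 189 passed the filter on low counts. Counts summed to 2803062, 1494211 and 2266336 in the cra2 libraries and to 3732552, 3910246 and 3011803 in the A17 libraries. CPM are counts scaled to a common library size. On these unscaled totals 3 counts corresponded to between 0.767 and 2.01 CPM, which is not the TMM scale of the CPM below. The miR159 sequence, of a family that targets GAMYB transcription factors, held 81.7, 73.2 and 78.5% of counts in cra2 and 84.9, 82.2 and 77.3% in A17. CPM below are per TMM-scaled library total, in which the cra2 factors were 1.19, 1.70 and 0.988 and the A17 factors 0.842, 0.752 and 1.09. The cra2 libraries stood further apart from each other than the A17 libraries: the median SD of log2 CPM was 0.609 in cra2 and 0.292 in A17, against 0.306 in cra2 and 0.296 in A17 under satiety. Library pairs correlated across sequences at r of 0.944 to 0.964 in cra2 and 0.986 to 0.989 in A17. The part of this spread in the results was not tested. Small RNA counts hold no marker of shoot tissue, and in whole shoots fewer cells of a type and less RNA per cell cannot be told apart.

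Under nitrogen deficit, the family sums of miR2111 and miR408 were lower in cra2 shoots than in A17 shoots. The mature strand of miR2111 did not pass alone, and its family call was lost in most fits that dropped a library. Also lower were miR396 a, the miR168 opposite arm and 3 sequences without a family name. Single members of miR156, miR160 and miR171, the miR396 opposite arm and 10 sequences without a family name were higher. Of 189 sequences 25 passed at an adjusted p under 0.05 (13.2%), 14 higher (7.41%) and 11 lower (5.82%) in cra2. The log2 differences of the 25 ran from −3.29 to 3.91, and the median over all 189 was 0.09. Of the 14 higher sequences 4 belonged to a family, and of the 11 lower ones 8 did, 5 of them related arms of miR2111. Over all 189 tested sequences 65 belonged to a family, of which 18.5% were called. Without an overlap between the 3 cra2 and 3 A17 libraries stood 28 sequences on the higher side (14.8%) and 28 on the lower side (14.8%), and 22 of the 25 called sequences were among them. DESeq2 called 37 sequences, 21 higher and 16 lower, which included all 25. Unadjusted p was under 0.05 for 64 sequences, 40 higher and 24 lower.

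**Figure D1:**
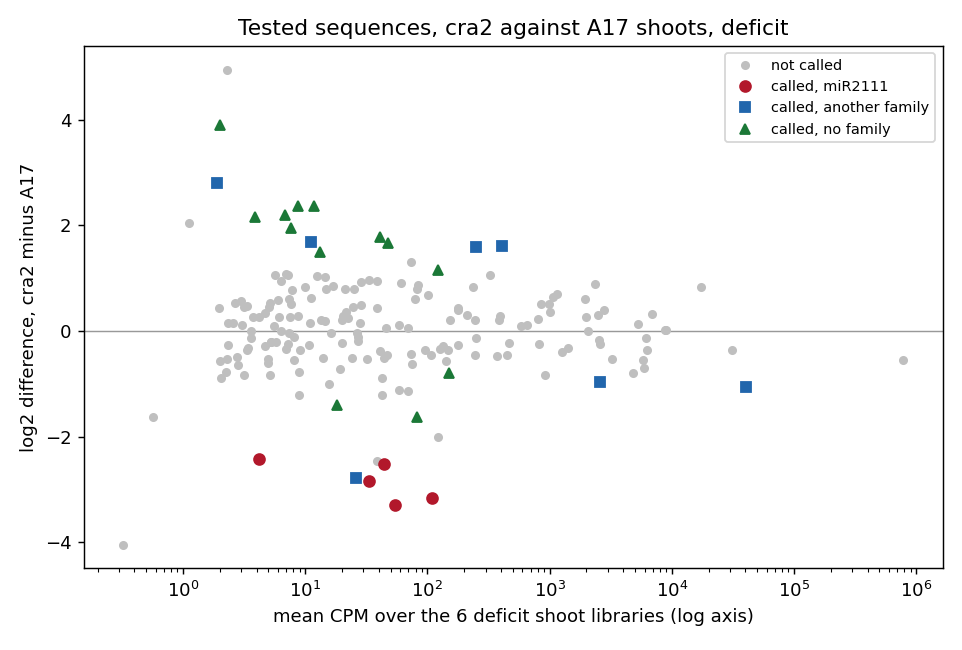
Each point is 1 of the 189 tested sequences, with its mean CPM over the 3 cra2 and 3 A17 deficit shoot libraries on the horizontal log axis and the log2 difference, cra2 minus A17, on the vertical axis. Among the 25 called sequences the 5 of miR2111 lie between −3.29 and −2.42, while most called sequences without a family (triangles) lie above 0 and toward low CPM.

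The number of calls rested on the libraries. It was 36 without cra2 replicate 1, 13 without cra2 replicate 2, 65 without cra2 replicate 3, 16 without A17 replicate 1, 12 without A17 replicate 2 and 7 without A17 replicate 3. In these fits 23, 11, 24, 15, 12 and 7 of the 25 sequences remained called, and all 25 kept their direction in each. Scaled to library totals alone, the median difference moved to 0.57 and 47 sequences were called higher and 6 lower, with 20 of the 25 among them. A fit of the 6 libraries alone called 6 sequences, 3 higher and 3 lower, all 6 among the 25.

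The systemic signal miR2111 was lower in cra2 as a family sum and at 5 of its 7 tested members. Summed over the family it had 293, 43.7 and 19.4 CPM in the cra2 libraries, against 713, 630.2 and 831 CPM in the A17 libraries. No cra2 library reached the lowest A17 library, and cra2 replicate 1 stood nearest to it. The log2 difference was −2.60 ± 0.75 (SE; adjusted p = 0.0485). Left out singly, the cra2 libraries gave −4.55 (adjusted p = 5.43e-05) without replicate 1, −2.37 (0.192) without replicate 2 and −2.16 (0.0192) without replicate 3. Without A17 replicate 1, 2 or 3 it was −2.70, −2.71 and −2.53, at adjusted p of 0.0648, 0.1 and 0.11, so the family passed in 2 of these 6 fits. It passed in 7 of 11 other alternatives.

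Of the 7 miR2111 sequences 5 were called lower, against 5.82% over all sequences, and all 7 separated the genotypes, with a median log2 difference of −2.51. Opposite arm a, which carries the largest difference of them, had 17.96, 8.28 and 3.58 CPM in cra2 and 95.4, 87.7 and 116 CPM in A17 (log2 −3.29 ± 0.66, adjusted p = 0.00907). Opposite arm b was the most abundant of the arms, with 44.9, 12.6 and 7.15 CPM in cra2 and 179, 185 and 219.5 CPM in A17 (−3.15 ± 0.61, adjusted p = 0.00907). Both passed in each fit that dropped a library, and in 11 of 11 other alternatives.

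Opposite arm e had 18.9, 1.58 and 3.13 CPM in cra2 and 59.2, 49.6 and 66.3 CPM in A17 (−2.83 ± 0.65, adjusted p = 0.0127). Opposite arm d, which differs from arm b by G7A, had 31.1, 6.70 and 0.447 CPM in cra2 and 77.9, 67.7 and 79.0 CPM in A17 (−2.51 ± 0.78, adjusted p = 0.0482). Opposite arm c was rare, with 7, 4 and 0 counts in cra2 and 22, 19 and 27 counts in A17 (−2.42 ± 0.59, adjusted p = 0.0193). When a library was dropped, arms c and e passed in 5 of 6 fits, missing without A17 replicate 3 (−2.26, adjusted p = 0.109, and −2.64, 0.068), and arm d in 2, those without cra2 replicate 1 or 3. Of the other alternatives arm c passed in 8 of 9, arm e in 10 of 11 and arm d in 5 of 11.

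The mature strand of miR2111, the strand that acts on TML, did not pass. It had 129, 11.4 and 4.47 CPM in cra2 and 199, 175 and 215 CPM in A17 (−2.01 ± 0.80, adjusted p = 0.0947), so the libraries did not overlap while cra2 replicate 1 came near the A17 range. Opposite arm f also missed, at −2.45 ± 0.78 (adjusted p = 0.0516). As counts, the mature strand and the summed opposite arms were at 431 and 483 in cra2 replicate 1, 29 and 89 in replicate 2, and 10 and 33 in replicate 3. In A17 they were at 626 and 1534, 516 and 1347, and 708 and 1822. The opposite arms thus exceeded the mature strand in all 6 libraries, by the smallest ratio in cra2 replicate 1. Arms a, b and d share stretches of 14 to 19 identical bases, so how the counting divided near-identical reads could move counts between them, and they are not independent of each other.

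**Figure D2:**
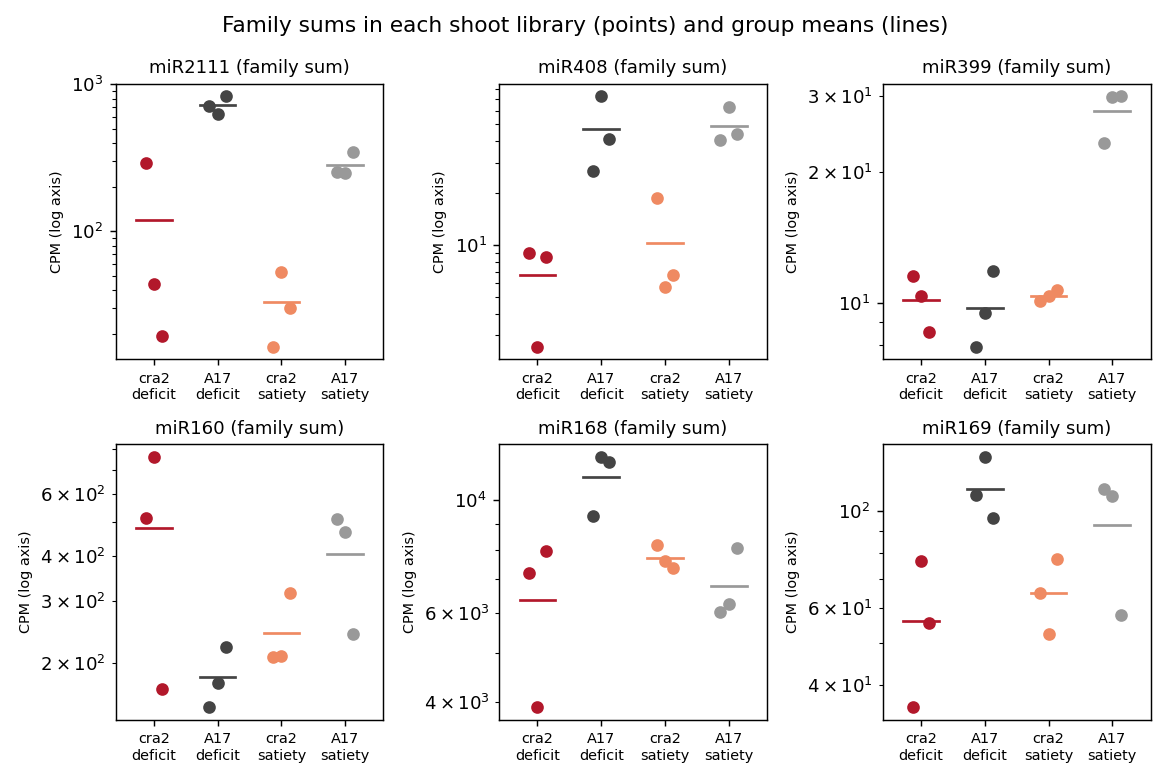
Each point is the summed CPM (log axis) of a family in 1 shoot library, with cra2 deficit, A17 deficit, cra2 satiety and A17 satiety from left to right and lines at the group means. For miR2111 and miR408 all cra2 points lie below all A17 points at each supply, and for miR399 the groups overlap under deficit (8.57 to 11.5 CPM in cra2, 7.92 to 11.8 in A17) and separate under satiety.

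Among the families tied to copper, only miR408 passed. miR408, which targets transcripts of copper proteins such as plantacyanins, had 8.97, 2.59 and 8.57 CPM in cra2 and 26.7, 72.7 and 41.4 CPM in A17. Every cra2 library lay below every A17 library, and the lowest cra2 value came from the shallowest library. The log2 difference was −2.80 ± 0.54 (adjusted p = 0.0111) for the family sum, which holds a single tested sequence. It passed in 10 of 11 other alternatives, and of 6 fits that each dropped a library it missed only that without A17 replicate 3 (−2.90, adjusted p = 0.0575). miR398, which targets copper/zinc superoxide dismutases, spread widely in cra2, with 2892, 743 and 493 CPM against 607, 762 and 1372 CPM in A17 (0.59 ± 0.52, adjusted p = 0.493), and its sign turned without cra2 replicate 1 (−0.60). miR2119 stood at −0.16 (0.829; positive with library totals), and miR397 had too few counts.

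The phosphate-linked miR399, which targets the ubiquitin-conjugating enzyme PHO2, was not called under deficit. Its sum was 11.5, 10.4 and 8.57 CPM in cra2 and 7.92, 9.47 and 11.8 CPM in A17 (0.07 ± 0.26, adjusted p = 0.882; negative with upper-quartile scaling). Its members differed in their values: the most abundant was at 0.51, and a rarer member had 0, 0 and 0 counts in cra2 and 1, 3 and 2 counts in A17, which with a floor of 3 counts over the cra2 group is at least 1.73-fold lower and did not pass (adjusted p = 0.0947).

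miR169, which targets the NF-YA transcription factors, had 35.6, 77.0 and 55.5 CPM in cra2 and 109, 133 and 96.2 CPM in A17. All cra2 libraries lay below the A17 libraries, and the difference of −1.01 ± 0.33 had an adjusted p of 0.0631. The families of the auxin pathway went in different directions. miR160, which targets auxin response factors of the ARF10, ARF16 and ARF17 group in Arabidopsis, had 512, 762 and 169 CPM in cra2 and 150.1, 175 and 222 CPM in A17 (1.40 ± 0.44, adjusted p = 0.0606). Here cra2 replicate 3 lay inside the A17 range. Of its members miR160 a passed, with 402, 599.9 and 116 CPM in cra2 and 105, 117 and 146 CPM in A17 (1.60 ± 0.46, adjusted p = 0.0439; 2 of 6 fits that dropped a library, and 1.05 with adjusted p = 0.223 without cra2 replicate 2), while miR160 b was at 1.31 (0.0788). Values without a call were −0.67 for miR167, which targets ARF6 and ARF8 in Arabidopsis, −0.31 for miR390, which triggers tasiRNAs against ARF transcripts (positive with library totals), and 0.27 for miR164, which targets NAC genes (adjusted p 0.133, 0.349 and 0.65).

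Of the phase-change families neither sum passed, but a member of miR156 did. miR156 keeps plants juvenile by targeting SPL transcription factors, and its sum was at 0.07 ± 0.32 (adjusted p = 0.883; negative in the fit of all 24 libraries). miR156 a had 701, 437 and 693 CPM in cra2 and 122, 266 and 207 CPM in A17, without overlap (1.62 ± 0.36, adjusted p = 0.0115), and it passed whichever library was dropped. miR156 b, with the same seed and a single different base, had 3835, 3830.0 and 9006 CPM in cra2 and 4590.0, 5979 and 4636 CPM in A17 (0.13 ± 0.31, adjusted p = 0.785). Since such reads differ by 1 base, counts may have passed between them. miR172, which targets AP2-type genes, had 2430.0, 2299 and 2621 CPM in cra2 and 2190.0, 1653 and 1361 CPM in A17 (0.50 ± 0.27, adjusted p = 0.239), without overlap.

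In the organ-development families the miR396 pair stood out. miR396 targets growth-regulating factors, and its sum had 43884, 51108 and 65354 CPM in cra2 and 67875, 87521 and 74085 CPM in A17 (−0.52 ± 0.21, adjusted p = 0.122; 0.07 with library totals). miR396 a had 21825, 19752 and 36833 CPM in cra2 and 44704, 67416 and 50572 CPM in A17 (−1.05 ± 0.29, adjusted p = 0.0342). miR396 b, which differs from it in the last base, had 14459, 30870.0 and 20873 CPM in cra2 and 13582, 12577 and 10944 CPM in A17 (0.84 ± 0.27, adjusted p = 0.0528). Thus both separated the genotypes, miR396 a on the low side of A17 and miR396 b on the high side, although a difference between these differences was not tested. Since the pair differs in the last base alone, counts may have passed between its members, which was not tested either. miR396 a passed in 7 of 11 other alternatives, missing with library totals (−0.58, adjusted p = 0.0519), and in 2 of 6 fits that dropped a library.

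The rare miR396 opposite arm was higher in cra2, with 7, 2 and 16 counts against 1, 1 and 2 counts in A17 (2.80 ± 0.87, adjusted p = 0.0482). miR171, which targets GRAS transcription factors, summed to 0.57 ± 0.25 (adjusted p = 0.144), and the member printed above had 13.8, 27.99 and 9.38 CPM in cra2 and 7.00, 6.12 and 2.74 CPM in A17 (1.69 ± 0.50, adjusted p = 0.0439). Both of these calls held in 2 of 6 fits that dropped a library, and in 5 of 9 and 8 of 11 other alternatives. Without cra2 replicate 3 the opposite arm was at 1.71 (adjusted p = 0.168), and without cra2 replicate 2 the miR171 member was at 1.12 (0.212). Other sums in this list did not pass, with −0.58 for miR159, −0.36 for miR166, which targets HD-ZIP III genes (positive with library totals), and 0.55 for miR319, which targets TCP genes (adjusted p 0.133, 0.4 and 0.227).

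Of the families that act on the small RNA machinery, miR168, which targets AGO1, had 7207, 3909 and 7933 CPM in cra2 and 9301, 12183 and 11882 CPM in A17. All cra2 libraries were lower, and the difference of −0.81 ± 0.26 had an adjusted p of 0.0631. Its opposite arm passed at −0.97 ± 0.30 (adjusted p = 0.0482), with 1393, 1544 and 2359 CPM in cra2 and 2224, 4398 and 3716 CPM in A17, where cra2 replicate 3 lay above A17 replicate 1. This call was lost with library totals (−0.48, adjusted p = 0.238), the replicate block (−0.96, 0.0723) and RLE scaling (−0.96, 0.053). It was also lost with at least 10 CPM in 3 libraries (−0.83, 0.0657), the 6 libraries alone (−1.03, 0.175) and without the most abundant sequence (−0.98, 0.0535). The call held in 2 of 6 fits that dropped a library. miR162, which targets DCL1, was at −0.05 (0.883; positive with library totals). None of the 6 sequences of the list of NB-LRR families and triggers of phased small RNAs passed. It holds families such as miR2118 and miR1507, which target disease resistance transcripts, and miR1509, which starts phased small RNAs. The log2 differences of the 6 sequences were −0.45 to 0.40.

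Counted over families, 16 of 152 entries passed (10.5%), where an entry is a family sum or a sequence without a family. Only miR2111 and miR408 were family sums, of 28 tested, and 15 of the 28 had a positive and 13 a negative difference. The sums of miR393, miR395 and miR397 had too few counts for the test. With edgeR, 46 entries passed without cra2 replicate 3 and 0 without A17 replicate 3 (31 at an unadjusted p under 0.05).

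**Figure D3:**
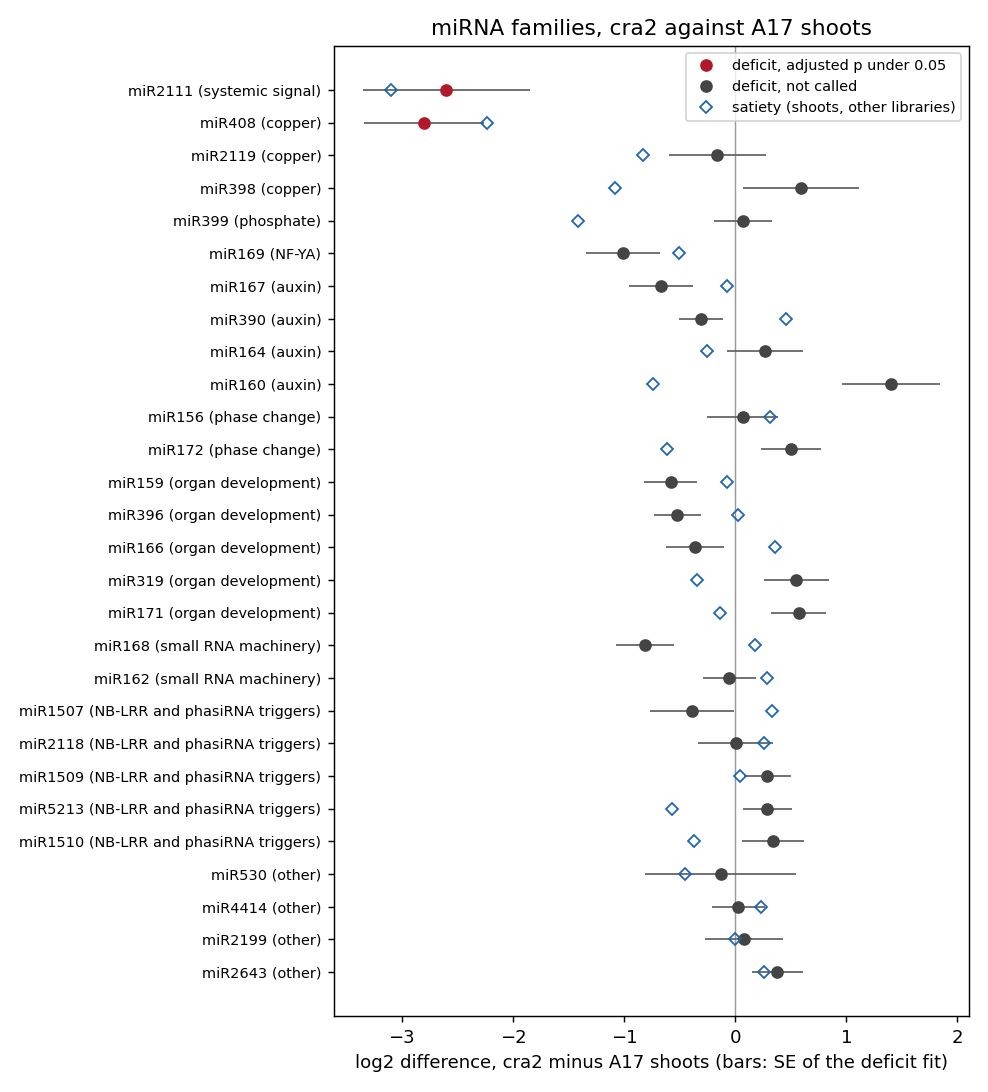
Filled points give the log2 difference, cra2 minus A17 shoots under deficit, of the 28 tested family sums, with bars of ± 1 SE, grouped by role, and open diamonds give the same difference under satiety. Only miR2111 (−2.60) and miR408 (−2.80) were called under deficit, and miR399 lies at 0.07 under deficit and at −1.41 under satiety.

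The sequences without a family made up 13 of the 25 calls, 10 higher and 3 lower of 124 tested, a called share of 10.5% against 13.2% over all 189 sequences. The largest difference among them was that of sRNA-A, a 24 nt sequence with 13, 11 and 7 counts in cra2 and 0, 1 and 1 counts in A17. Its ratio of summed counts, each divided by the TMM-scaled library totals, was 17.9 (95% counting interval 4.56 to 154; log2 3.91 ± 0.80, adjusted p = 0.00907), and it passed whichever library was dropped. sRNA-F had 14.1, 15.4 and 6.70 CPM in cra2 and 2.23, 4.42 and 2.74 CPM in A17 (1.95 ± 0.39, adjusted p = 0.00907) and also passed in each of these 6 fits. sRNA-B had 18.3, 32.3 and 8.94 CPM in cra2 and 4.45, 3.74 and 3.34 CPM in A17 (2.36 ± 0.50, adjusted p = 0.0102), passing in 5.

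In these 3 sequences each cra2 library exceeded each A17 library. sRNA-C (2.36), sRNA-D (2.19) and sRNA-E (2.17) had at most 27.2 CPM in any cra2 library and 5.09 CPM in any A17 library, and passed in 3, 3 and 4 of 6 fits that dropped a library. Without cra2 replicate 2 they were at 1.49, 1.39 and 1.81 (adjusted p 0.195, 0.225 and 0.0587). sRNA-H (1.66), sRNA-I (1.5) and sRNA-J (1.15) were more abundant, and in all 3 of these cra2 replicate 2 was the highest library, at 129, 29.2 and 255 CPM. Each of these 3 passed in 2 of 6 fits that dropped a library, and without cra2 replicate 2 they were at 0.87, 1.04 and 0.65 (adjusted p 0.195, 0.109 and 0.223). sRNA-G (1.78, adjusted p = 0.0446) overlapped between the genotypes, with 22.8, 130.5 and 38.4 CPM in cra2 and 25.8, 16.3 and 13.7 CPM in A17. Without cra2 replicate 2 it was at 0.64 (adjusted p = 0.32). Replicate 2 of cra2, the shallowest library, was the highest library in each of sRNA-A to sRNA-J, in miR160 a and in the miR171 member. In miR156 a and the miR396 opposite arm it was not. Without cra2 replicate 2 only 5 sequences were called higher, against 14 in the main fit.

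On the lower side, sRNA-K had 22.5, 30.4 and 68.8 CPM in cra2 and 138, 137 and 99.7 CPM in A17 (−1.63 ± 0.37, adjusted p = 0.0127) and passed whichever library was dropped. sRNA-L had 7.79, 10.6 and 11.6 CPM in cra2 and 26.1, 23.1 and 29.5 CPM in A17 (−1.40 ± 0.38, adjusted p = 0.0337). sRNA-M had 125, 104.5 and 100.5 CPM in cra2 and 200.0, 211 and 165 CPM in A17 (−0.80 ± 0.24, adjusted p = 0.0446). All 3 separated the genotypes, but with library totals sRNA-L was at −0.90 (adjusted p = 0.142) and sRNA-M at −0.26 (0.612), and sRNA-M was also lost with the replicate block (0.0717). sRNA-L passed in 3 and sRNA-M in 2 of 6 fits that dropped a library, and they passed in 9 and 6 of 11 other alternatives.

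Of the 5 most abundant sequences, miR396 a was the only one called. The others were miR396 b, the miR159 sequence (−0.55 ± 0.25, adjusted p = 0.136), the leading miR166 sequence (−0.35, 0.405; positive with library totals) and the miR2118 sequence (0.02, 0.964; negative with upper-quartile scaling). The share of the miR159 sequence was 77.8 ± 4.30% in cra2 and 81.5 ± 3.85% in A17 (SD, n = 3 each; exact two-sided permutation p = 0.4, where 3 against 3 cannot go below 0.1).

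The calls are given by strand and length beside the 13.2% called over all sequences, with no test of a difference between classes. Of 14 opposite-arm sequences 7 were called (50%), 1 higher and 6 lower, and 5 of the lower ones were miR2111, and of 51 mature sequences 5 were called (9.8%). Opposite arms made up 4.10, 3.45 and 4.34% of the counts other than the miR159 sequence in cra2, and 5.51, 5.44 and 5.48% in A17. These shares did not overlap (exact two-sided permutation p = 0.1, the smallest possible value). Of all counts, opposite arms made up 0.869 ± 0.103% in cra2 and 1.02 ± 0.210% in A17 (SD, n = 3 each). On that base the libraries overlapped (exact permutation p = 0.4), so the separation rested on leaving out the miR159 sequence. Of 132 sequences of 21 nt 22 were called (16.7%), and of 25 sequences of 22 nt 1 was (4%). Of 25 sequences of 24 nt 2 were called (8%), sRNA-A and sRNA-I, both higher. The log2 difference was positive for 19 of these 25, with a median of 0.43 against 0.09 over all lengths. Their share of all counts was 0.0616, 0.134 and 0.0352% in cra2 and 0.0341, 0.0283 and 0.0371% in A17, which overlapped.

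The same genotype comparison under satiety used other libraries, within the same fit, and called 13 of 189 sequences (6.88%), 2 higher and 11 lower. Of the 25 sequences called under deficit 7 were also called there, namely opposite arms a to e of miR2111, miR408 and sRNA-A, and 15 of 25 had the same sign. The satiety calls rested on single libraries. Of the 13, none remained by edgeR without cra2 satiety replicate 3, A17 satiety replicate 2 or A17 satiety replicate 3 (32, 30 and 38 at an unadjusted p under 0.05), and 2, 4 and 7 sequences passed without cra2 replicate 1, cra2 replicate 2 and A17 replicate 1. miR2111 summed to 16.5, 52.7 and 30.4 CPM in cra2 and 254, 248 and 348 CPM in A17 under satiety (−3.10, adjusted p = 0.0362). Here no cra2 library stood near A17, as replicate 1 did under deficit. miR408 had 18.6, 5.70 and 6.67 CPM in cra2 and 40.4, 62.6 and 43.7 CPM in A17 (−2.23, adjusted p = 0.0362).

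Over the 189 sequences 87 had the same sign at each supply (46.0%), with a Pearson r of 0.544 and a Spearman rho of 0.0843, as a description over sequences of shared libraries. The difference of the differences was tested as an interaction. It called 0 of 189 sequences (0%) with edgeR, with 51 at an unadjusted p under 0.05 and 23 called by DESeq2, and the smallest adjusted p was 0.0698. Without cra2 shoot deficit replicate 3 it called 46 and without cra2 shoot deficit replicate 1 it called 13.

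**Figure D4:**
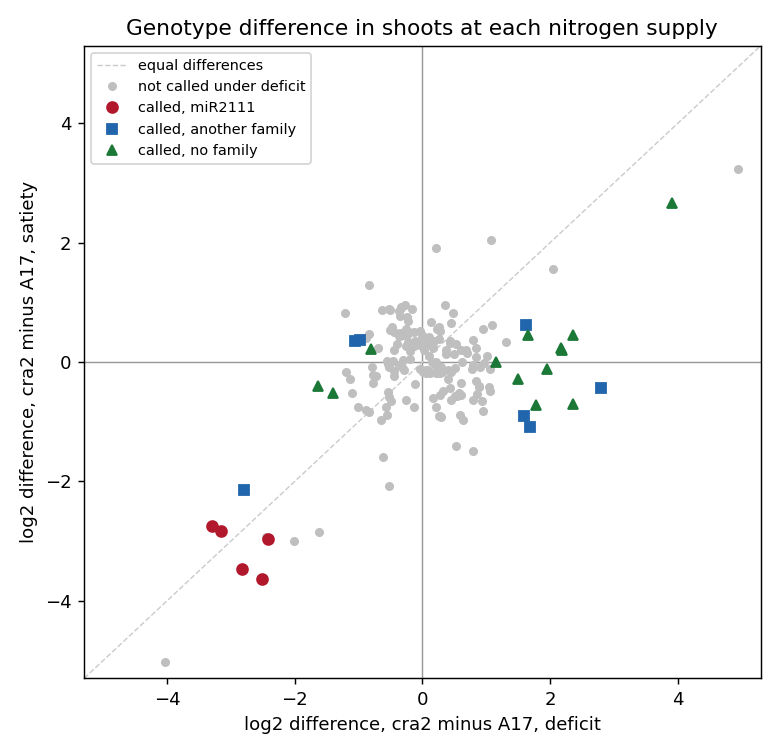
Each point is a tested sequence, with its log2 difference, cra2 minus A17 shoots, under deficit on the horizontal axis and under satiety on the vertical axis. The miR2111 points and miR408 lie low on both axes near the line of equal differences, sRNA-A lies high on both (3.91 and 2.66), and the other called sequences lie between −1.09 and 0.63 under satiety.

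Over family sums and sequences of no family, the interaction called 4 of 152 entries (2.63%), all positive. The only family sum of the 4 was miR399. Under satiety it had 10.1, 10.3 and 10.7 CPM in cra2 and 23.3, 29.8 and 29.9 CPM in A17 (−1.41, adjusted p = 0.00956). The deficit difference exceeded this by 1.48 ± 0.36 (adjusted p = 0.0461). Across the 4 groups, the high value was that of A17 under satiety. sRNA-B and sRNA-F, described above, were 2 of the others (3.09 ± 0.66 and 2.12 ± 0.52, adjusted p = 0.0461 for each). As single sequences they were at −0.70 and −0.12 under satiety. Their interaction did not pass in the fit of single sequences (edgeR adjusted p = 0.0698 for each). For miR2111 and miR408 the interaction did not pass (0.49, adjusted p = 0.757, and −0.57, adjusted p = 0.62).

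Between organs, the genotype difference under deficit was tested as shoots minus roots. Of 200 sequences 25 passed (12.5%), 21 positive and 4 negative, a split that rested on scaling, since the median was 0.27 with TMM and −0.02 with RLE scaling, where 12 were positive and 12 negative. Of the entries with families summed 18 of 159 passed (11.3%), among them miR399, miR172, miR319, miR160 and miR390. In roots under deficit, miR2111 was at −2.89 (adjusted p = 9.8e-06) and miR408 at −1.89 (0.000245), and their organ differences of −0.07 and −1.24 did not pass (adjusted p 0.977 and 0.261). Of the shoot calls 20 were tested in roots, of which 16 had the same sign and 9 were called, and sRNA-C (2.26) and sRNA-H (2.09) were among the 9. sRNA-M, lower in cra2 shoots, was at 0.69 in roots (adjusted p = 0.0108), and its organ difference of −1.39 passed (adjusted p = 0.00435).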

How the data were processed

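Plants and libraries were as the labels' protocols describe: RNA extraction with a miRNeasy kit, NEXTFLEX Small RNA-seq v3 libraries with gel size selection. cutadapt was used, per the submitters' processing notes. Its version, the counting tool, its mismatch rules and where the listed sequences came from: not given in the sources used here. Whole-number counts, made by the authors and deposited, cover the same 427 sequences in each of 24 libraries, and were used unchanged. Depth and floors stand in the report; intervals and floors cover counting error only, and reads may include PCR copies.

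Families were named here by sequence, since the files hold no names: a conserved motif of 8 or 9 nt at most 3 nt from the start, an alignment over 18 nt or more with up to 3 mismatches, or pairing with a named member as opposite arm (overhang of 1 to 3 nt, at least 17 paired positions, at most 3 mismatches and 4 GU pairs). This named 95 sequences in 31 families, which held 96.0 to 97.9% of counts in the 6 libraries. The role lists follow textbook targets.

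The test was edgeR 4.0.16 quasi-likelihood (robust, R 4.3.3) after TMM scaling and a low-count filter (filterByExpr by group, minimum count 10), with p adjusted by Benjamini-Hochberg over all sequences tested and called at adjusted p under 0.05. It was fitted on 12 shoot libraries with 4 group means, and organ differences on 24 libraries. Family sums were fitted in the same way together with sequences of no family, with scaling of their own, so a CPM can differ slightly between a single-member sum and its sequence. The script was tested on simulated data. Named sequences were up to 12 called per direction with the largest difference and no overlap, plus the 5 most abundant; the called sequences that overlapped (miR160 a, the miR168 opposite arm and sRNA-G) and the uncalled partners of named sequences were named after their values were seen. Members, lists and tests were chosen with earlier results of these data known. Alternatives were RLE, upper-quartile and library-total scaling, DESeq2 1.42.0, an unfiltered table, a minimum of 10 CPM in 3 libraries, other library sets, a replicate block, removal of the most abundant sequence, non-robust spread and each library left out.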

Additional observations from a re-analysis of the deposited data

Results flagged for a closer look

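The genotype difference, cra2 minus A17, differed between settings by a test of the difference itself, for 4 of 152 entries of the family table between supplies and for 18 of 159 between organs. The 4 entries, and the 5 family sums among the 18, are given here as log2 values ± SE with edgeR adjusted p. With families summed, these differences were not refitted under any alternative or with a library left out. Between deficit and satiety in shoots, sRNA-B differed by 3.09 ± 0.66 (adjusted p = 0.0461), with 2.36 under deficit and −0.70 under satiety for the sequence itself. For miR399 the deficit minus satiety value was 1.48 ± 0.36 (adjusted p = 0.0461), from 0.07 and −1.41. sRNA-F differed by 2.12 ± 0.52 (adjusted p = 0.0461), with 1.95 under deficit and −0.12 under satiety. In the fit of single sequences neither sRNA-B nor sRNA-F passed (edgeR adjusted p = 0.0698 for each), and no other sequence did. The sequence gGAGTGACactgagaacacaag, of no family and with its seed in capitals, differed by 1.96 ± 0.48 (adjusted p = 0.0461). Under deficit it had 1652, 1136 and 709.5 CPM in cra2 and 764, 719 and 964 CPM in A17, and under satiety 825, 737 and 1050.0 CPM in cra2 and 1464, 2730.0 and 2712 CPM in A17.

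Between shoots and roots under deficit, the genotype difference of miR399 was 2.76 ± 0.51 higher in shoots (adjusted p = 0.000681), with 0.07 in shoots and −2.98 in roots. That of miR172 was 1.85 ± 0.34 higher (adjusted p = 0.000681), with 0.50 in shoots and −1.62 in roots. For miR319 it was 1.18 ± 0.34 higher (adjusted p = 0.0262), with 0.55 in shoots and −0.93 in roots, and for miR160 1.62 ± 0.53 higher (adjusted p = 0.0456), with 1.40 and −0.55. For miR390 the organ difference was −1.52 ± 0.29 (adjusted p = 0.000814), with −0.31 in shoots and 0.96 in roots. The shoot and root values come from separate fits, so their difference need not equal the organ value, which is from the fit of 24 libraries.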

How the results depend on the processing

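The 25 sequences called under deficit kept their direction in each alternative in which they were tested. Their number was 53 with library totals, 6 with the 6 compared libraries alone, 52 with all 24 libraries and 7 to 65 with 1 library left out. Of the family table, 16 entries passed, against 39 with library totals, 25 with DESeq2, 5 with at least 10 CPM in 3 libraries, 0 with the 6 libraries alone (edgeR, 23 at an unadjusted p under 0.05), 32 with all 24 libraries and 0 to 46 with 1 library left out. The 6 libraries alone leave fewer samples and the CPM filter fewer sequences. Other causes were not tested. Under satiety, 13 became 0 to 7 with 1 library left out. The nitrogen interaction, 0 in the main setting, gave 13 with library totals, 23 with DESeq2 and 0 to 46 with 1 library left out, and the organ interaction gave 9 to 41 with 1 left out and 16 positive and 19 negative with DESeq2.

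With the replicate block 18 sequences (10 higher, 8 lower) and 10 family-table entries passed, and satiety, nitrogen and organ counts were 10, 0 and 26. Residuals of equally numbered cra2 and A17 libraries correlated at −0.066, −0.167 and −0.013, so the numbers gave no pairing.

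Signs of small uncalled family differences turned as follows. With library totals miR1507 was at 0.033, miR162 0.48, miR166 0.13, miR2119 0.23, miR390 0.26, miR396 0.065, miR530 0.41 and the miR166 sequence 0.087. With upper-quartile scaling miR2118 was at −0.13, miR2199 −0.090, miR399 −0.089, miR4414 −0.12 and the miR2118 sequence −0.059. With the 6 libraries alone miR156 was at −0.040, miR2118 −0.12, miR2199 −0.020, miR399 −0.021, miR4414 −0.039 and the miR2118 sequence −0.020. With all 24 libraries miR156 was at −0.083, miR2118 −0.24, miR2199 −0.14, miR399 −0.15 and miR4414 −0.15. With at least 10 CPM in 3 libraries miR2118 was at −0.064 and miR4414 −0.015, without a filter miR2118 was at −0.018 and its sequence −0.079, and with the replicate block miR156 was at −0.039. With 1 library left out the ranges were −0.039 to 0.59 for miR1510, −0.52 to 0.23 for miR156, −0.25 to 0.057 for miR162, −0.28 to 0.47 for miR164, −0.52 to 0.19 for miR2118, −0.42 to 0.21 for miR2119, −0.43 to 0.36 for miR2199, −0.60 to 0.98 for miR398, −0.093 to 0.25 for miR399, −0.26 to 0.25 for miR4414, −1.08 to 0.34 for miR530 and −0.38 to 0.29 for the miR2118 sequence. Of all family values under an alternative, 393 kept their direction and side of the threshold, 27 newly passed, 10 no longer passed and 45 turned sign. For named sequences these numbers were 333, 9, 83 and 6. Where 1 library was left out of 3, its group rested on 2 libraries.

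Counts limit the rare sequences: sRNA-A and the miR396 opposite arm had at most 2 counts in any A17 library. Other called sequences also had few counts in single libraries. In A17, sRNA-D had 16, 2 and 5 counts and sRNA-E had 5, 5 and 3. In cra2, miR2111 opposite arm d had 104, 17 and 1 counts and arm e had 63, 4 and 7.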

Other observations

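The largest log2 difference among all tested sequences belonged to a sequence that was not called, tAGAGATTtgtttaacagcca, noticed after its values were seen. It had 11, 26 and 0 counts in cra2 and 0, 0 and 1 counts in A17 (log2 4.95, edgeR adjusted p = 0.0528), a ratio of summed counts, each divided by the TMM-scaled library totals, of 42.7 with a 95% counting interval of 7.21 to 1734, so cra2 replicate 3 lay within the A17 range.

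sRNA-L, lower in cra2 shoots, has listed partners that share most of its bases. Its full reverse complement of 21 nt, also listed, was at log2 0.30 (edgeR adjusted p = 0.580), and a reverse complement over 19 nt was at 0.21 (0.654). On the same strand, a sequence sharing 19 nt with it was at −0.65 (0.416), and another sharing 19 nt was not tested. None of the tested partners was called, and the one on the same strand had the sign of sRNA-L.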
